A study of Mus musculus with 444 samples.

Results

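The genes described here encode components of the basement membrane and were measured in single epithelial cells of the mouse mammary gland, at puberty and in the adult. They are the laminin chain genes Lama3, Lama5, Lamb1, Lamb3 and Lamc1, the collagen IV chain genes Col4a1 and Col4a2, the nidogen gene Nid1 and the perlecan gene Hspg2. The genes were taken by name and matched through their Entrez identifiers, and make up 9 of 25136 genes measured. All 9 were found in the count files, and each had reads in both lineages at both stages.

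The cells came from mammary glands of FVB/NJ females, an inbred strain, with no treatment. Pubertal glands were taken at 5 weeks of age by the study's account, although the names of the deposited files give 4 weeks, and adult glands at 10 weeks, with the tissue of 6 and 4 mice pooled for a sort. Cells negative for the blood, endothelial and erythroid antigens CD45, CD31 and Ter119 were sorted as total epithelium, basal and luminal together. A CD24 gate, which the study used for total epithelium elsewhere and which would remove most fibroblasts, is not stated for these cells in the sources used here. RNA of each captured cell was amplified with oligo-dT priming on a microfluidic chip and sequenced without molecular identifiers. Mice came from several independent experiments, but no label ties a cell to an animal or an experiment, so each stage was handled as 1 sample, no test across animals was possible and no p-value is given. The intervals below are at 95%, cover counting error or cell sampling only, and do not cover differences between mice.

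Of 444 cells, 323 had at least 100000 assigned read pairs and 1500 genes, 171 from puberty and 152 from the adult. Assigned read pairs in these cells ran from 101471 to 1354378 (median 309941) at puberty and from 100883 to 1049746 (median 331034) in the adult. Every cell was drawn down to 100000 read pairs, so that 1 read pair is worth 10 CPM, the unit of reads scaled to a common library total, and all cells have the same depth. Cells were put in classes by the mean log2(CPM + 1) of 10 basal markers minus that of 10 luminal markers, none of which is a gene described here. A difference of 1 or more made a basal cell, of -1 or less a luminal cell. Puberty held 47 basal and 108 luminal cells, and the adult 83 basal and 49 luminal cells, with 16 and 20 cells between the cuts, and 65 of the 323 cells lay within 1 of a cut.

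Some features of the libraries touch the values that follow. Adult cells numbered 48 to 188 stood apart: all 107 that were retained had reads of the small RNA gene Rn7sk, against 8 of the other 45 adult cells. The stage comparison in basal cells is therefore given in both sets as well. Other adult values are for all adult cells unless a set is named, and some differ by set. Basal to luminal log2 ratios in the run and the others were 6.28 and 0.54 for Lama3, 8.32 and -1.54 for Nid1, and -1.46 and 6.39 for Hspg2. In the set with the lower ratio, 1 cell held most of the luminal reads. Adult luminal cells carried basal transcripts more often than pubertal ones, with Krt14 in 65.3% of them against 23.1% and Acta2 in 67.3% against 38.9%, at adult medians of 10 and 20 CPM. This was mainly in the run, whose luminal cells had reads of a median of 7 basal markers. The median was 2 in the other adult luminal cells and 1 in pubertal ones. Shares of adult luminal cells with 1 or 2 reads of a basement membrane gene are therefore not read as expression. Lastly, 46 of the 323 cells, 26 pubertal and 20 adult, had reads of at least 3 markers of 1 type, fibroblasts, endothelium or pericytes. Values without them are given beside the results named below. Some of these markers were common in the classes: Fbn1, which the study lists as basal, was read in 53.2% of pubertal and 60.2% of adult basal cells. Dcn was read in 45.8% of adult basal and Notch3 in 30.6% of pubertal luminal cells. The cells left out may thus include epithelial cells, which was not tested.

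The basement membrane is a thin sheet of matrix on which the epithelium rests, and in the mammary gland the basal, or myoepithelial, cells are the ones that touch it. Laminins are trimers of an alpha, a beta and a gamma chain that polymerise at the cell surface and bind integrins and dystroglycan. Collagen IV forms a second network, and nidogen and perlecan link the sheets together. Lama5, Lamb1 and Lamc1 encode the chains of laminin α5β1γ1, and Lama1, Lamb1 and Lamc1 those of laminin α1β1γ1, while the alpha 3 and beta 3 chains of Lama3 and Lamb3 occur together in the laminin that anchors hemidesmosomes.

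In the genome, the laminin members lie apart from one another on mm10. Lamc1 is at chr1:153218922-153332786, Lama5 at chr2:180176373-180225904, Lamb1 at chr12:31265146-31329644 and Lamb3 at chr1:193294353-193343878. Nid1 is at chr13:13437602-13512275 and Hspg2 at chr4:137468751-137570630. The collagen IV genes Col4a1 (chr8:11198423-11312889) and Col4a2 (chr8:11312805-11449287) stand head to head on opposite strands, and their annotated ends overlap. Since the use of strand in counting was not stated, reads in that overlap cannot be given to one or the other, and the same holds for the noncoding genes and pseudogenes that overlap Lama3, Lama5, Lamb3, Lamc1 and Hspg2.

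Promoter windows from RefSeq, on GRCm38.p6 and reaching from 250 bases before to 50 after a start, were at hand for 7 of the 9 genes. The stretches ahead of the outermost start are shown for 4 members whose patterns differ in the data below: Lama5, found alike in both lineages, Lamb1, mainly basal, and the linker genes Nid1 and Hspg2. Capitals mark matches, on either strand, of the GC box GGGCGG or the CCAAT box, and none of the matches overlap.
Lama5 (chr2:180225905-180226109, minus strand): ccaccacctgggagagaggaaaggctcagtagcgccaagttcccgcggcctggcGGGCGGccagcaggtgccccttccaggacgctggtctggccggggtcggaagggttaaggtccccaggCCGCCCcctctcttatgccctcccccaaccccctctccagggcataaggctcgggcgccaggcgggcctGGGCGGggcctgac
Lamb1 (chr12:31265043-31265145, plus strand): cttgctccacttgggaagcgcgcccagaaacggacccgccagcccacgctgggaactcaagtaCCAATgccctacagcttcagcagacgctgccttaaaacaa
Nid1 (chr13:13437352-13437550, plus strand): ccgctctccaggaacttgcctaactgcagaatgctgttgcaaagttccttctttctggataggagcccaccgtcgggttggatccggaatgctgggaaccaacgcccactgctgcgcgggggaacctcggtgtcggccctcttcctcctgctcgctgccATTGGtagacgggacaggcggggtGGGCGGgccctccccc
Hspg2 (chr4:137468553-137468750, plus strand): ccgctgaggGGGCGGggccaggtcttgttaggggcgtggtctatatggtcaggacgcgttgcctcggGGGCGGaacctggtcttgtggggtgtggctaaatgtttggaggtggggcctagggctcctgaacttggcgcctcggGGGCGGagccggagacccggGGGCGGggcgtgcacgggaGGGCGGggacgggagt

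The Hspg2 stretch held 5 GC boxes and the Lama5 stretch 3, while the Nid1 stretch held 1 GC box and 1 CCAAT box and the Lamb1 stretch 1 CCAAT box. These stretches are shorter than the windows of 300 bases. In the full windows Lamb1 held 2 GC boxes and Lama5 held 4, and the other counts were the same. Among all 32851 promoter windows of 300 bases, 35.7% held a GC box and 37.4% a CCAAT box. No window of the 7 genes held TGANTCA, a letter string bound by AP-1, or TATAAA, which 7.81% and 13.6% of all windows held, and a Lamb3 window held the E-box CAGCTG, found in 16.3%. These matches describe letters in the windows and no binding was measured.

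Among the 9 genes, the collagen IV genes had the highest level per length in basal cells. Col4a1 encodes the alpha 1 chain, which joins with the alpha 2 chain of Col4a2 in the common collagen IV trimer. Per kilobase of transcript, mean levels in pubertal basal cells were 194 RPKM for Col4a1 and 143 for Col4a2, against 83.0 for Lamb1, 55.4 for Nid1, 30.0 for Lamc1, 17.7 for Lama3, 11.4 for Lamb3, 5.98 for Lama5 and 1.28 for Hspg2. In adult basal cells the order was Col4a2 at 149 RPKM, Col4a1 at 112, Lamb3 at 39.5, Lamb1 at 39.2, Lama3 at 30.0, Nid1 at 21.7, Lamc1 at 16.5, Lama5 at 8.43 and Hspg2 at 1.35. Neighbours in these orders were often close, such as Lamb3 and Lamb1 in the adult, and with 1 sample per stage their order carries no test.

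**Figure D1:**
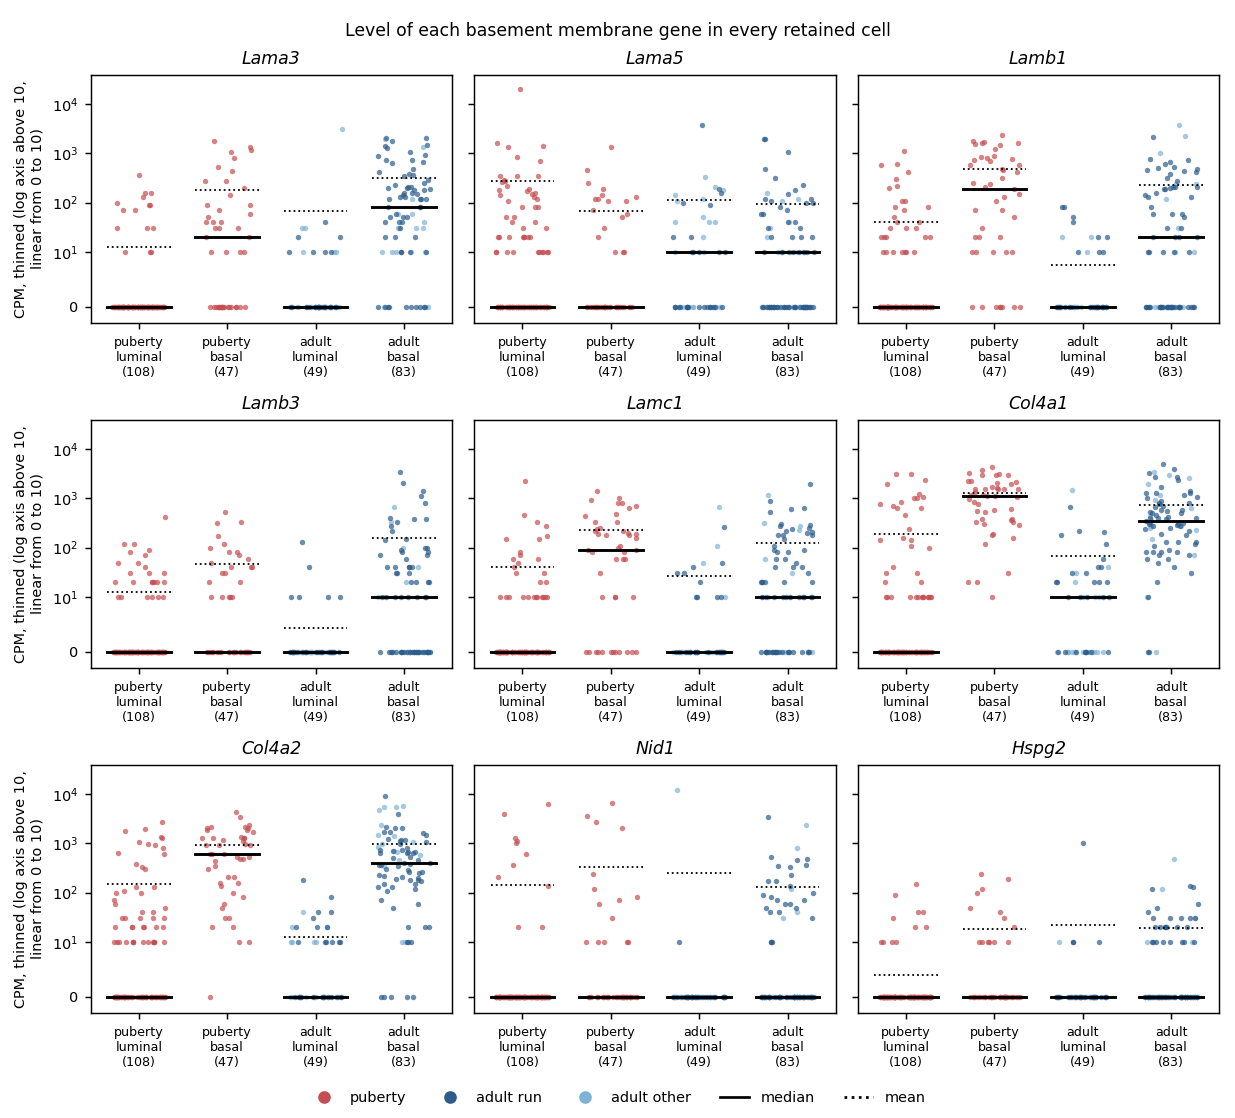
Level of each gene in every basal and luminal cell, as CPM on an axis that is logarithmic above 10 and linear below, by stage and class; each point is 1 cell, the solid bar is the median and the dotted bar the mean, and adult cells are shaded by set. Col4a1 and Col4a2 stand high in nearly all basal cells of both stages, while Nid1 and Hspg2 lie at 0 in most cells.

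Col4a1 was read in all 47 pubertal basal cells, from 10 to 4440 CPM with a median of 1100. Adult basal cells ran from 0 to 4980 CPM around a median of 350, and 96.4% had a read. Luminal cells lay far lower, with medians of 0 CPM at puberty and 10 CPM in the adult, although the highest reached 3190 and 1460 CPM and so overlapped the basal range. The mean level was 1284 CPM in pubertal basal cells against 188 in luminal ones, a log2 ratio of 2.78 (interval 2.70 to 2.85). The adult means were 740 and 68.2 CPM, a log2 ratio of 3.44 (3.28 to 3.60), with 43.7% of the adult luminal reads in 1 cell that had markers of other types. Leaving out the top cell of each class gave 4.14, and leaving out all cells bearing such markers gave 3.25 at puberty and 4.22 in the adult. At a stricter count of at least 5 reads, 91.5% of pubertal and 90.4% of adult basal cells had Col4a1, against 18.5% and 14.3% of luminal cells.

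Col4a2 followed the same division. Pubertal basal cells ran from 0 to 4410 CPM (median 600) and adult basal cells from 0 to 9250 CPM (median 410), with reads in 97.9% and 94.0%. The luminal medians were 0 CPM at both stages and the highest luminal cells had 2790 CPM at puberty and 180 CPM in the adult, so that the adult luminal cells sat at the bottom of the basal range. The log2 ratio of basal to luminal means was 2.59 (2.51 to 2.67) at puberty, from 919 and 153 CPM, and 6.27 (5.90 to 6.65) in the adult, from 958 and 12.4 CPM. With 5 reads or more, 85.1% of pubertal and 84.3% of adult basal cells carried it, against 20.4% and 4.08% of luminal cells.

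Both collagen IV genes were read in the same cell in 46 of 47 pubertal basal cells (97.9%) and 75 of 83 adult ones (90.4%). In luminal cells the pair met in 28.7% at puberty and 30.6% in the adult. Across all 323 cells their log2(CPM + 1) levels correlated with a Pearson r of 0.73, and within the 130 basal cells r was 0.32. Both are given as description, since the cells share libraries and the counting of reads in the overlap of the genes is not stated.

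Lama3 (chr18:12333417-12583013) encodes the laminin alpha 3 chain, and it was read mainly in basal cells at both stages. Pubertal basal cells ran from 0 to 1770 CPM (median 20) with reads in 59.6%, and adult basal cells from 0 to 2090 CPM (median 80) with reads in 85.5%. Among luminal cells 13.9% had a read at puberty and 26.5% in the adult, both with a median of 0 CPM. The mean level was 183 CPM in basal against 12.6 in luminal cells of puberty, a log2 ratio of 3.86 (3.60 to 4.13). In the adult it was 310 against 67.1 CPM, a log2 ratio of 2.21 (2.04 to 2.38), but 1 luminal cell with 3080 CPM held 93.6% of the luminal reads, and the ratio without the highest cell of each group was 6.04.

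Lamb3 encodes the beta 3 chain, which assembles with the alpha 3 chain of Lama3. Its median was 0 CPM in pubertal and 10 CPM in adult basal cells, with highest values of 520 and 3370 CPM and reads in 48.9% and 56.6% of cells. Luminal cells had it in 23.1% at puberty and 12.2% in the adult, up to 420 and 130 CPM. Most cells of every class were thus low or at 0, and the basal lead came from a minority of high cells. The log2 ratio of basal to luminal means was 1.91 (1.59 to 2.23) at puberty, from 46.2 and 12.3 CPM, and 5.22 (4.61 to 5.92) in the adult, from 160 and 4.29 CPM. One adult luminal cell held 61.9% of that class's reads, and the adult ratio without the highest cells was 6.18.

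Lama3 and Lamb3 were read in the same cell in 18 of 47 pubertal basal cells (38.3%, 24.5 to 53.6) and 42 of 83 adult ones (50.6%, 39.4 to 61.8). Of the adult basal cells, 54.5% of those in the run and 35.3% of the others had both. The pair was met in 2 of 108 pubertal luminal cells (1.85%) and 2 of 49 adult ones (4.08%). The count of this pair was taken up after the values had been seen.

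Lamb1, the beta 1 chain of laminins α5β1γ1 and α1β1γ1, was the laminin chain with the highest level per length in pubertal basal cells. There it ran from 0 to 2400 CPM with a median of 190, and 83.0% of cells had a read. Adult basal cells ran from 0 to 3740 CPM, but the median was 20 and 59.0% had a read. Luminal medians were 0 CPM at both stages, with reads in 27.8% and 24.5% and highest values of 1140 and 80 CPM. Mean levels of 480 and 40.1 CPM gave a basal to luminal log2 ratio of 3.58 (3.43 to 3.73) at puberty. In the adult, 226 and 7.55 CPM gave 4.91 (4.44 to 5.42). Without cells bearing markers of other types these ratios were 4.49 and 5.98.

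Lamc1 encodes the gamma 1 chain, which is found in most laminins. Pubertal basal cells ran from 0 to 1410 CPM (median 90) and adult ones from 0 to 1930 CPM (median 10), with reads in 74.5% and 66.3%. About as many luminal cells had a read at puberty (26.9%) as in the adult (28.6%), with medians of 0 CPM and highest values of 2280 and 670 CPM. The basal means of 229 and 126 CPM stood over luminal means of 40.7 and 26.7 CPM, log2 ratios of 2.49 (2.33 to 2.65) and 2.23 (1.97 to 2.51). One pubertal luminal cell held 51.8% of that class's Lamc1 reads, and the pubertal ratio without the highest cells was 3.36. In the adult, 1 luminal cell with markers of other types held 51.1% of the reads, and the ratio was 2.96 without the highest cells and 3.33 without all cells bearing such markers.

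Lama5, the alpha 5 chain of laminin α5β1γ1, differed from the other laminin members in that luminal cells carried it about as often as basal cells. At puberty 38.3% of basal and 45.4% of luminal cells had a read, and in the adult 51.8% and 51.0%. With at least 5 reads the shares were 27.7% and 25.0% at puberty and 24.1% and 24.5% in the adult. Medians were 0 CPM in both pubertal classes and 10 CPM in both adult classes. Highest values were 1320 CPM in pubertal basal, 19920 in pubertal luminal, 1980 in adult basal and 3740 in adult luminal cells.

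Its mean levels depended on single cells. The pubertal luminal mean of 278 CPM against 68.1 in basal cells gave a log2 ratio of -2.03 (-2.20 to -1.86), but the cell with 19920 CPM held 66.4% of the luminal reads and also had 3 fibroblast markers. Without the highest cell of each group the ratio was -1.21, and without all cells bearing markers of other types it was -0.42. In the adult, 96.0 CPM in basal and 116 in luminal cells gave a ratio of -0.27 (-0.43 to -0.11), which turned to 0.86 without the highest cells, 1 of which held 66.0% of the adult luminal reads.

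The laminin α5β1γ1 chains Lama5, Lamb1 and Lamc1 were read together in 25.5% of pubertal (12 of 47, 13.9 to 40.3) and 25.3% of adult basal cells (21 of 83, 16.4 to 36.0), and in 6.48% and 10.2% of luminal cells. Lama1, which is not one of the 9, encodes the alpha chain of laminin α1β1γ1. It was read in 55.3% of pubertal and 41.0% of adult basal cells, and together with Lamb1 and Lamc1 in 38.3% (24.5 to 53.6) and 19.3% (11.4 to 29.4) of them. In luminal cells that set was met in 1.85% and 2.04%. Of the adult basal cells, 22.7% of those in the run and 5.88% of the others had that set. The laminin α5β1γ1 set was met in 27.3% and 17.6% of them.

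**Figure D2:**
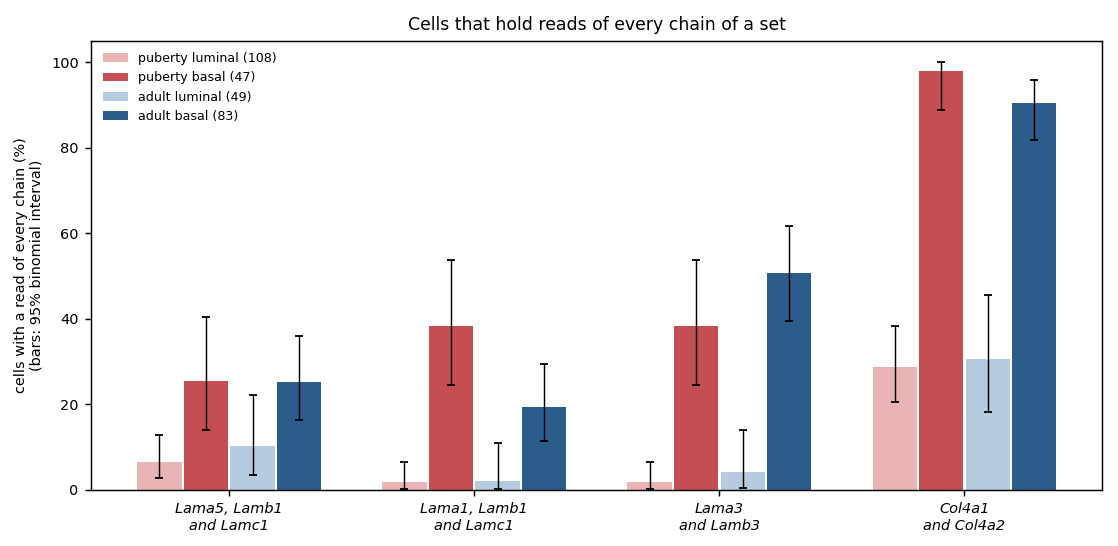
Share of cells, in percent, with a read of every gene of a set, by stage and class, with exact binomial 95% intervals over cells. The collagen IV pair is read together in over 90% of basal cells, Lama3 with Lamb3 in 38.3% of pubertal and 50.6% of adult basal cells, and the laminin α5β1γ1 set in about 25% of both.

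Nid1 encodes nidogen-1, which bridges laminin and collagen IV. It was read in few cells of any class, 31.9% of pubertal and 37.3% of adult basal cells and 10.2% and 4.08% of luminal cells, with a median of 0 CPM in each. The highest cells had 6680, 3520, 6320 and 12210 CPM in that order of classes. Means were 335 CPM in basal and 141 in luminal cells at puberty, a log2 ratio of 1.25 (1.15 to 1.35). The adult means of 131 and 249 CPM gave -0.93 (-1.04 to -0.81), but Nid1 was read in only 2 adult luminal cells, 1 of which held 99.9% of the reads.

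Nid1 reads lay mostly in cells with markers of other types. The 46 cells with at least 3 such markers held 7192 reads, a mean of 1563 CPM with 67.4% of cells read (52.0 to 80.5), and the other 277 cells held 807 reads, a mean of 29.1 CPM with 14.4% read (10.5 to 19.1). The highest Nid1 cell of each class had 7 or 8 of the 8 fibroblast markers. Among pubertal luminal cells the mean was 1482 CPM in the 10 cells with such markers and 3.78 CPM in the 98 without, and among adult luminal cells 3053 CPM in 4 and 0.222 CPM in 45. In basal cells without the markers the mean was 112 CPM in 36 pubertal cells (10 with a read) and 40.6 CPM in 70 adult ones (22 with a read). One of the 36, with 3620 CPM, held 90.0% of their reads, and the pubertal mean without it was 11.4 CPM. Over the cells without such markers, the basal to luminal log2 ratio was 4.89 at puberty and 7.51 in the adult, from very few luminal reads and, at puberty, mostly from that 1 basal cell.

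The fibroblast markers were found in cells of each class. Their summed level had a median of 40 CPM in pubertal basal (range 0 to 18480), 0 in pubertal luminal (0 to 39500), 90 in adult basal (0 to 26740) and 10 in adult luminal cells (0 to 31060), and none of the 8 was at 0 throughout a class. Other members were also read more often in the 46 cells, such as Lamb1 (73.9% against 41.5%), Lamc1 (80.4% against 41.5%) and Hspg2 (45.7% against 17.7%). Intervals overlapped for Lama3 (50.0% against 43.0%), Lama5 (56.5% against 44.8%), Col4a2 (80.4% against 66.1%) and Lamb3 (30.4% against 33.6%). Whether these reads came from the captured epithelial cell or from other cells was not tested.

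**Figure D3:**
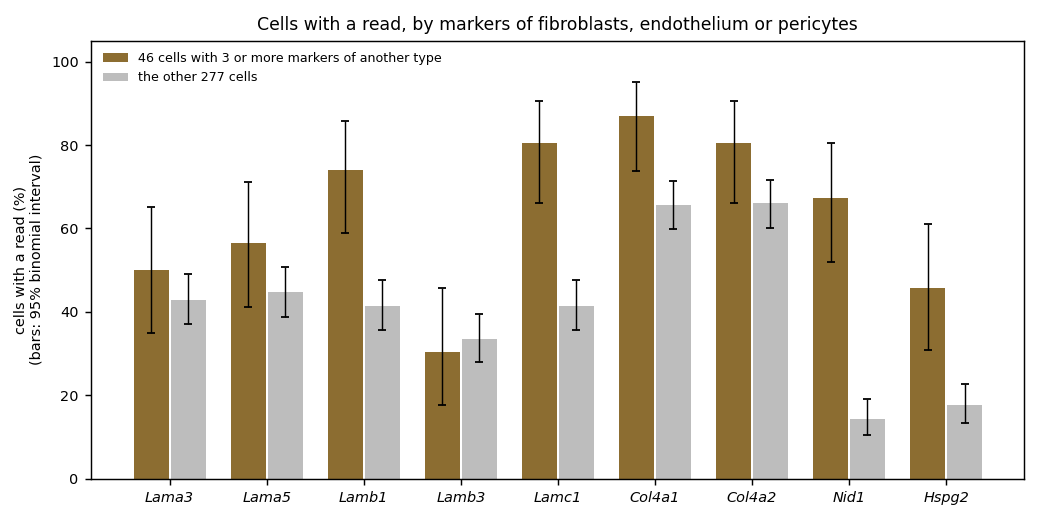
Share of cells with a read of each gene, in percent, in the 46 cells with at least 3 markers of fibroblasts, endothelium or pericytes and in the other 277 cells, with exact binomial 95% intervals over cells. Nid1 shows the widest gap, 67.4% against 14.4%, and Lamb3 the one share that is not higher in the 46 cells.

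Hspg2 encodes perlecan, a large heparan sulfate proteoglycan, and had the lowest level per length of the 9 in basal cells. It was read in 29.8% of pubertal and 38.6% of adult basal cells and in 10.2% of luminal cells at each stage. The highest basal cells had 240 and 490 CPM, and the medians were 0 CPM. Means of 18.1 and 3.98 CPM gave a pubertal basal to luminal log2 ratio of 2.18 (1.64 to 2.75). The adult ratio of -0.19 (-0.55 to 0.18), from 19.2 and 21.8 CPM, rested on a luminal cell of 1030 CPM with 3 pericyte markers that held 96.3% of the luminal reads, and was 4.01 without the highest cells. Between the stages in basal cells, the Hspg2 log2 ratio of puberty to adult was -0.08 (-0.48 to 0.31) against all adult cells. It was 0.39 (-0.05 to 0.83) against the run and -1.15 (-1.62 to -0.66) against the other adult basal cells. One of the latter held 72.1% of their reads, and no stage direction is given.

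Set side by side, most of the 9 genes were higher in basal than in luminal cells at both stages. By the mean level, 8 of 9 were more than 2-fold higher in basal cells at puberty and 1, Lama5, more than 2-fold lower, where 23.4% and 25.7% of all genes tested passed these limits. In the adult 6 of 9 were past 2-fold higher and none lower, against 30.1% and 27.6% of all genes. The median log2 ratio over the 9 was 2.49 at puberty and 2.23 in the adult, beside -0.04 and 0.04 over all genes. All genes here means those at 20 CPM or more in one of the classes compared, a level that Hspg2 did not reach at puberty.

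The share of cells with a read gave the same picture with less weight on single cells. This measure was taken up after the values had been seen. Of the 9 genes, 7 had a share at least 20 percentage points higher in basal cells at puberty, as did 5.64% of all genes, and 8 of 9 in the adult, as did 10.8%. None had a share lower by that much, beside 3.44% and 1.92% of all genes. The exceptions were Lama5 at both stages and Hspg2 at puberty, whose difference was 19.6 points. A basal cell had reads of a median of 5 of the 9 genes at puberty and 6 in the adult, and a luminal cell of 2 at each stage. No basal cell lacked all 9, whereas 23 of 108 pubertal and 3 of 49 adult luminal cells did.

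Added up, the 9 genes made a median of 2940 CPM in pubertal basal cells (260 to 10940) and 2350 CPM in adult basal cells (100 to 12990). In luminal cells the medians were 105 and 90 CPM, but single cells reached 20010 and 12290 CPM, so the ranges overlapped. The first of these is the cell high in Lama5 and the second the cell high in Nid1.

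Along the score that divides the classes, the genes did not change at the same place. Col4a1 was read in 17.1% of pubertal cells with a difference below -5, in 70.0% of those between -5 and -3, and in all pubertal cells above 1. Lamb1 went from 17.1% below -5 to 100% between 3 and 5 and 83.3% beyond it at puberty. In the adult Lamb1 was read in 0 of 18 cells below -5, was highest between 1 and 3 at 72.7%, and stood at 48.8% in the most basal cells. Lama3 climbed from 7.89% to 66.7% at puberty and from 5.56% to 87.8% in the adult, and Lamb3 from 21.1% to 55.6% and from 5.56% to 65.9%. Lama5 moved between 30.8% and 60.0% at puberty and between 41.5% and 68.2% in the adult with no steady run.

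**Figure D4:**
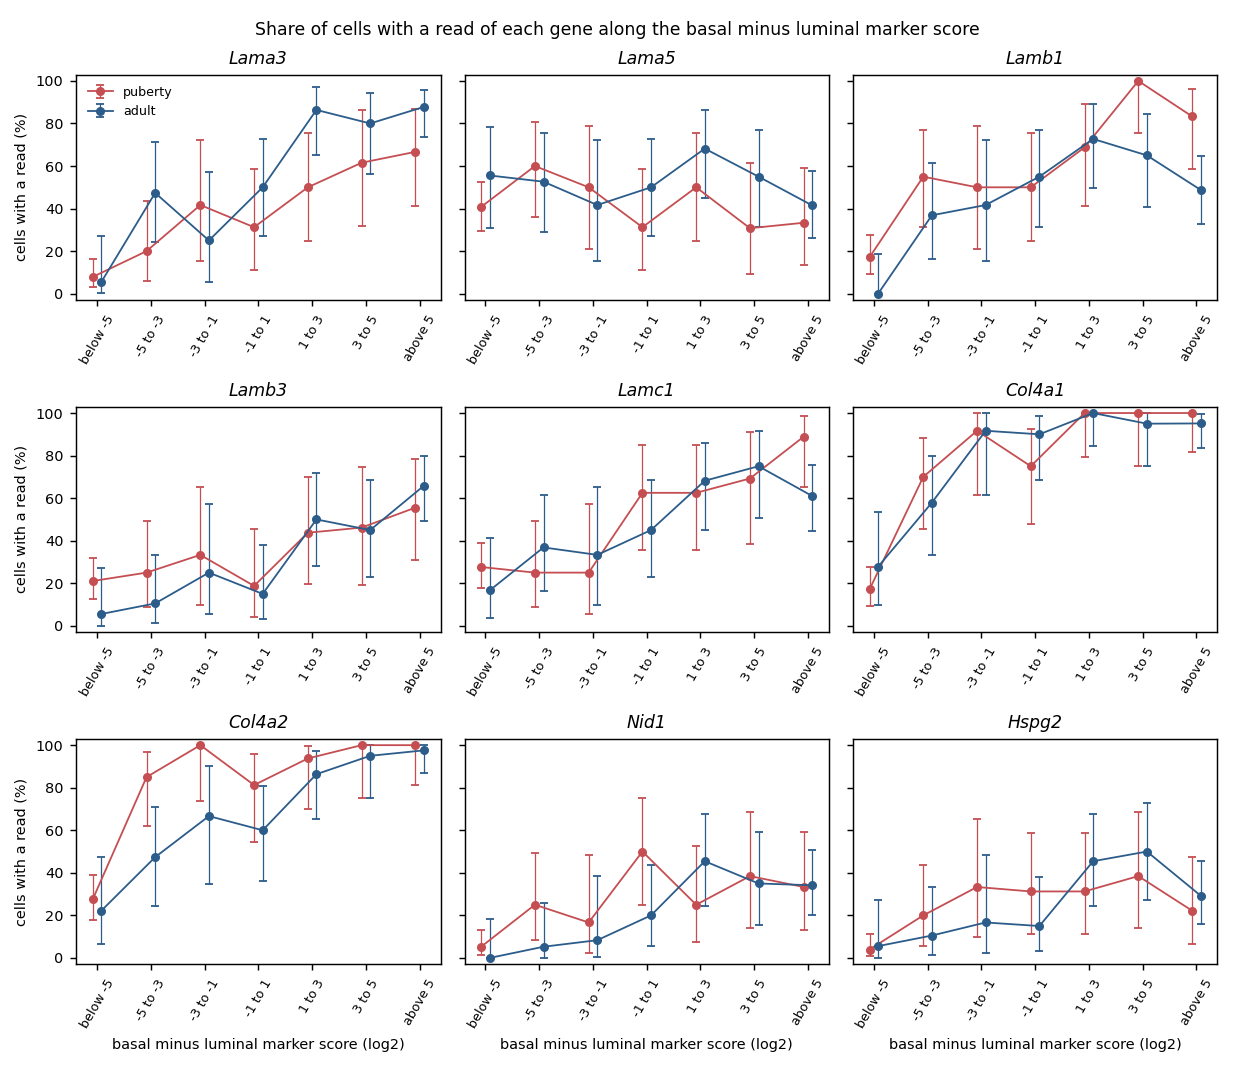
Share of cells with a read of each gene, in percent, in bins of the basal minus luminal marker score, at puberty and in the adult, with 95% binomial intervals over cells. Col4a1 goes from 17.1% in the most luminal pubertal bin to 100% in every bin above 1, while Lama5 shows no steady run along the score.

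Within the luminal cells, 6 progenitor and 6 mature, hormone-sensing markers divided the class into 16 progenitor and 88 mature cells at puberty and 16 and 28 in the adult. Lama3 was read in 0 of 16 pubertal progenitor cells and in 14 of 88 mature ones (15.9%, 8.98 to 25.2). Lama5 was read in 25.0% of pubertal progenitor and 48.9% of mature cells, and in 56.3% and 53.6% in the adult. Col4a2 had the other order at puberty, with 62.5% of progenitor and 40.9% of mature cells, and 37.5% and 42.9% in the adult. With 16 cells per progenitor group the intervals are wide (7.27 to 52.4 for the pubertal Lama5 share), and no order of the luminal subclasses is read from these shares.

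Between the stages, the pooled cells of puberty and adult differed in class, with 27.5% basal cells at puberty and 54.6% in the adult, so pooled ratios mix a change of level with a change of mixture. Over the retained cells the log2 ratio of puberty to adult was -2.11 for Lamb3 (-2.28 to -1.94), -1.86 for Lama3 (-1.96 to -1.75) and 1.09 for Lama5 (1.00 to 1.18), and lay between -0.99 and 0.39 for the other 6 genes. The Lama5 value rested on the cell with 19920 CPM, which held 59.2% of the pubertal reads: leaving out the top cell on both sides gave 0.24, short of 2-fold, and fewer pubertal (42.1%) than adult cells (51.3%) had a read. By the means as they stand, 1 of the 9 was more than 2-fold higher at puberty and 2 lower, where 20.3% and 14.7% of all genes passed these limits. By the share of cells, none was at least 20 points higher at puberty and 2 were lower, Lama3 (28.1% against 61.8%) and Col4a1 (56.7% against 82.2%), beside 3.05% and 3.38% of all genes.

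Within basal cells, the stage comparison split the laminin chains. By the mean over all adult basal cells, the beta 1 and gamma 1 chains were higher at puberty and the alpha 3 and beta 3 chains higher in the adult. Not all of these directions held by every measure in both adult sets, as given below. Lamb1 had mean levels of 480 and 226 CPM, and the log2 ratio of puberty to adult was 1.08 (0.99 to 1.17). Its median was 190 against 20 CPM, and 63.8% against 42.2% of cells had 5 reads or more. Lamc1 had a ratio of 0.86 (0.74 to 0.99), with 63.8% and 36.1% of cells at 5 reads or more. Without cells bearing markers of other types, the ratios were 0.96 for Lamb1 and 0.76 for Lamc1.

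Lama3 and Lamb3 went the other way. Lama3 had a ratio of -0.76 (-0.88 to -0.65), with 34.0% of pubertal and 60.2% of adult basal cells at 5 reads or more. Lamb3 had a ratio of -1.80 (-2.01 to -1.59), with 23.4% and 28.9%.

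Of the other members, Col4a1 was higher in pubertal basal cells, with a ratio of 0.79 (0.74 to 0.85). Nid1 had a ratio of 1.35 (1.24 to 1.46), but 1 pubertal cell with 7 fibroblast markers held 42.5% of the pubertal reads, and fewer pubertal (31.9%) than adult basal cells (37.3%) had a read, so no stage direction is given for it. Col4a2 had means close to each other (ratio -0.059, -0.11 to -0.0058), and Lama5 had a ratio of -0.50 (-0.69 to -0.31). Of the 9, 2 had means more than 2-fold higher at puberty (Lamb1 and Nid1) and 1 lower (Lamb3), where 27.5% and 22.6% of all genes were, so the count of members past 2-fold was no larger than for genes at large. By the share of cells, Lamb1 was at least 20 points higher at puberty and Lama3 at least 20 points lower, against 4.25% and 5.84% of all genes.

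**Figure D5:**
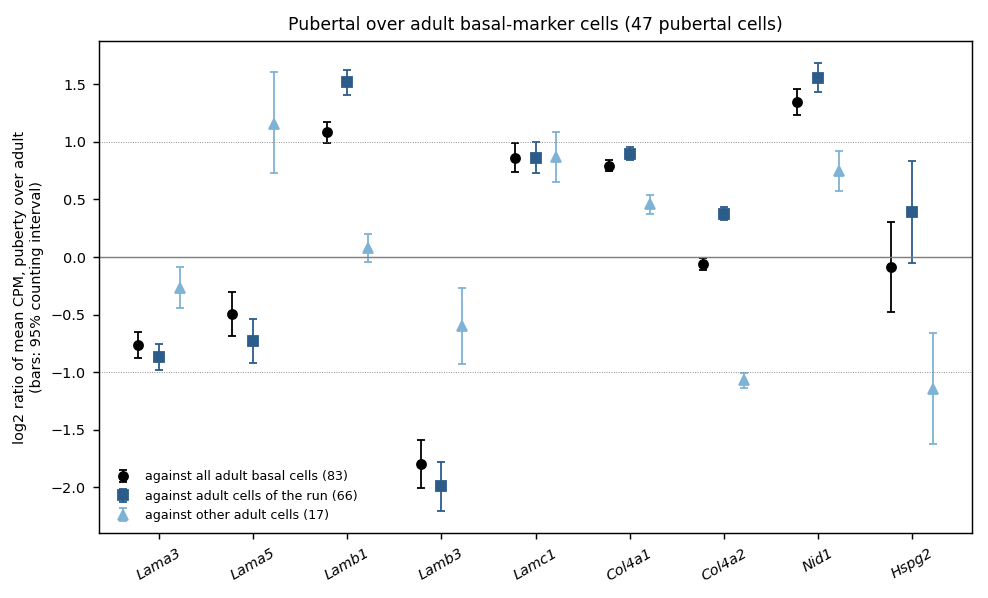
Log2 ratio of mean CPM, puberty over adult, in basal cells for each gene, against all adult basal cells, those of the run numbered 48 to 188 and the other adult basal cells; bars are 95% counting intervals. Lama3 and Lamb3 lie below 0 and Col4a1, Lamc1 and Nid1 above 0 in all 3, while Lama5, Col4a2 and Hspg2 change side and Lamb1 falls from 1.52 to 0.08.

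The adult run bore on these values gene by gene. Against the 66 run and the 17 other adult basal cells, the ratio for Lamb1 was 1.52 and 0.08, and 1 of the 17 cells held 48.4% of their reads. The share of cells with Lamb1 was lower than the pubertal 83.0% in both adult sets, at 60.6% and 52.9%. The ratios for Lama3 were -0.87 and -0.27, with shares of 84.8% and 88.2% over the pubertal 59.6%. One of the 17 cells held 51.6% of their Lama3 reads. Without the highest cells the Lama3 means were 306 CPM in the run, 113 in the other adult cells and 148 at puberty. At 5 reads or more, 68.2% of run and 29.4% of other cells had Lama3, around the pubertal 34.0%. By these 2 measures its adult lead held against the run only. The ratios for Lamc1 were 0.86 and 0.87, and for Col4a1 0.90 and 0.46.

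Other members held less well. Lamb3 had ratios of -1.99 and -0.60, with reads in 62.1% of run and 35.3% of other adult basal cells on either side of the pubertal 48.9%. At 5 reads or more the shares were 31.8%, 17.6% and, at puberty, 23.4%. One of the other adult cells held 57.1% of their Lamb3 reads. Without the highest cells the means were 31.9 CPM in those cells and 35.9 at puberty, so no Lamb3 direction is given against them. Lama5 changed side, from -0.73 against the run to 1.15 against the other cells, as did Col4a2 with 0.38 and -1.07 and Hspg2 with 0.39 and -1.15. For these 3 genes the pubertal mean lay between those of the adult sets, and no stage direction is given.

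In luminal cells the stage ratios rested on few cells. Among members higher at puberty, Col4a2 had the widest gap, 153 CPM at puberty against 12.4 for adult cells (log2 ratio 3.62, 3.25 to 4.01), and Lamb1 followed with 2.41 (1.92 to 2.93). Col4a1 had 1.46 (1.29 to 1.63), while a read of Col4a1 was found in fewer pubertal (35.2%) than adult luminal cells (55.1%). Among adult luminal cells that share was 71.4% in the run and 33.3% in the others. By the mean, 5 of the 9 were past 2-fold higher at puberty and 2 lower, beside 29.1% and 20.3% of all genes. The 5 include Lamb3, which at 12.3 and 4.29 CPM did not reach the 20 CPM set for all genes. No member's share of cells differed by 20 points in either direction, beside 6.27% of all genes higher and 2.39% lower. Lama3 (-2.41) and Hspg2 (-2.46), the 2 lower ones, turned to 1.08 and 1.65 without the highest cell of each group, and Lama5 (1.26) turned to -0.33 without cells bearing markers of other types.

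By likeness across all 323 cells, measured by Pearson's r of log2(CPM + 1) against 4803 genes read in at least 20% of cells, the members fell in with different genes. Lama3 was nearest to the smooth muscle myosin gene Myh11 (0.58) and the basal keratins Krt14 (0.56) and Krt17 (0.56), and Lamb3 to Myh11 (0.41), Cnn1 (0.39) and Krt14 (0.39). Col4a1 was nearest to Apoe (0.75), the smooth muscle actin gene Acta2 (0.74) and Sparc (0.73), and Col4a2 to Col4a1 (0.73). Lamb1 was nearest to the matrix gene Col14a1 (0.53), Fstl1 (0.51) and Pdpn (0.49), and Lamc1 to Tgfbr3 (0.45) and Pdpn (0.45). Nid1 was nearest to the fibronectin gene Fn1 (0.70), and Hspg2 to Col4a2 (0.39). Lama5 had its highest value, 0.31, with the ion transporter gene Slc12a2, and lay between -0.05 and 0.08 for the other members. The points share libraries and mix 2 cell classes, and these values are a description.

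Other genes of the basement membrane, 54 on 7 lists, were followed in the same comparisons, each read against the shares of all genes given above. Their ratios between the stages are against all adult cells and are not given for each adult set. Their means often rest on few cells. Of the listed genes past 2-fold between basal and luminal cells, 17 of 21 at puberty and 23 of 28 in the adult stayed past it without the highest cell of each group, as did 14 of 17 between the stages in basal cells. Lost were P4ha1, P4hb, Plod1 and Timp3 at puberty, Lamb2, Itga2, Ddr1, Mmp9 and Mmp14 in the adult, and Lamb2, Itga3 and Mmp9 between the stages. Of the other laminin chains, Lama1 was past 2-fold higher in basal cells at both stages, among 2 tested of 5. Lamb2 had a lower mean in adult basal cells (log2 ratio -1.63), but 1 luminal cell held 95.5% of the luminal reads, 22.9% of basal and 12.2% of luminal cells had a read, and the ratio was 2.51 without the highest cells. Of the other collagen IV chains, Col4a6 was past 2-fold higher in basal cells at both stages and Col4a5 in the adult, where it had 91.4 CPM in basal and 1.22 in luminal cells. Among linkers and proteoglycans, 3 of 6 tested were higher in basal cells at puberty and 4 of 5 in the adult, Col18a1, Sparc and Tinagl1 at both. Col18a1, the source of endostatin, had 262 CPM in basal and 13.9 in luminal cells at puberty, and 126 and 0.612 in the adult. Egflam was lower in adult basal than luminal cells, with a log2 ratio of -2.91 and 59.2% of the luminal reads in 1 cell, and in basal cells it was higher at puberty (2.64). Npnt, read in few cells, had a pubertal basal to luminal ratio of -0.78 and was higher at puberty over all cells (6.38).

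On the cell side of the membrane, Col17a1, the transmembrane collagen of hemidesmosomes, was higher in basal cells at both stages, with 295 against 15.5 CPM at puberty (log2 ratio 4.25). It was the one of 5 hemidesmosome genes past 2-fold at puberty, joined in the adult by Col7a1 and Cd151. Of the receptors, 3 of 7 tested were higher in basal cells at puberty (Itga3, Itga6 and Ddr1) and 5 of 7 in the adult, when Itgb1 and Bcam also passed. Itga2 had lower basal means at both stages (-1.87 at each), but these rested on few cells. At puberty 6.38% of basal and 8.33% of luminal cells had a read, and 1 cell of each class held 95.5% and 44.1% of its reads. In the adult 1 luminal cell held 87.7% of the reads, and more basal (14.5%) than luminal cells (10.2%) had a read. The adult ratio was 0.28 without the highest cells. Itgb4, the integrin beta chain of hemidesmosomes, was low throughout and lower in basal cells at puberty, with 5.96 against 30.1 CPM. Bcam, which binds the alpha 5 chain, was lower in pubertal than in adult basal cells, with a ratio of -2.36 and reads in 8.51% against 26.5% of cells.

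Of the genes that fold and crosslink collagen, 5 of 7 tested were higher in basal cells at puberty and 3 of 5 in the adult. P4ha2 had a pubertal ratio of -2.27, from 9.15 and 44.0 CPM, but was read in 4.26% of basal cells, 1 of which held 97.7% of the reads, and 1 luminal cell held 70.1% of the luminal reads. Pxdn, the peroxidase that crosslinks collagen IV, was among the higher ones at both stages, with 173 against 81.9 CPM and 92.2 against 1.63 CPM. Between the stages in basal cells, the lysyl hydroxylase genes Plod1 (1.65), Plod2 (3.00) and Plod3 (1.89) had higher means at puberty. For each gene 1 cell held much of the pubertal basal reads, 43.8%, 39.8% and 41.1% in that order. Plod1 was read in 23.4% of pubertal and 12.0% of adult basal cells, and Plod2 in 17.0% and 15.7%. Plod3 was read in fewer pubertal (19.1%) than adult basal cells (25.3%), against the direction of its mean. Serpinh1, the collagen chaperone, had a lower mean at puberty, with a log2 ratio of -2.17. Serpinh1 was also higher in adult basal than luminal cells (6.09). P4hb had a lower mean in pubertal than in adult luminal cells (-1.58), but more pubertal (49.1%) than adult luminal cells (42.9%) had a read.

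Of proteases and inhibitors, 3 of 6 were higher in basal cells at puberty and 6 of 7 in the adult, Mmp2, Adamts1 and Timp3 at both. The 6 include Mmp9, which was read in 1 adult basal cell and in no pubertal basal or adult luminal cell. In basal cells none of the 7 tested was past 2-fold higher at puberty and 4 were lower, Mmp2, Mmp9 by that 1 cell, Timp1 and Timp2. Timp2 had 111 against 508 CPM, 39.4% of the latter from 1 cell, and a ratio of -1.84 without the highest cells. Timp1 had a pubertal basal to luminal ratio of -1.37, and in the adult it had 51.8 CPM in basal cells and no read in luminal ones, and in basal cells its ratio of puberty to adult was -1.40. Adamts1 had 690 CPM in basal and 76.0 in luminal cells at puberty. Mmp14 had a lower mean in adult basal than luminal cells (-1.15), but more basal (56.6%) than luminal cells (49.0%) had a read. As for the members, these counts come from 1 sample per stage and carry no test.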

How the data were processed

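The measurements were full-length, poly-A primed RNA-seq libraries of single mammary cells, 221 from puberty and 223 from the adult. The authors aligned read pairs to mm10 with Subread and deposited, for each cell, raw counts of read pairs per Entrez gene from featureCounts; tool versions and strand handling are not given in the sources used here. No other column of per-sample values was used (0 unused columns).

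Of 27179 gene identifiers, 25275 matched RefSeq GRCm38.p6 and the rest held 1.84% of read pairs. Mitochondrial (15, 13.9% of read pairs) and ribosomal protein genes (124, 2.95%) were removed, leaving 25136. Cells with 100000 read pairs and 1500 genes were thinned to 100000 read pairs (seed 1). No doublet caller was run, since the authors viewed captured cells by microscope. No 2 cells had identical counts.

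Ratios are of mean CPM without a pseudocount, except that a group with no read of a gene was given 3 reads. A gene entered the count over all genes at 20 CPM in either group, and the count over shares when read in 10% of cells of either group. Ratio intervals are exact conditional binomial and those of shares exact Clopper-Pearson. RPKM is CPM per kilobase of the deposited gene length. The members, the 7 lists and the rules for classes, for markers of other cell types and for named genes were chosen with earlier results of these data known. Listed genes are named where they were past 2-fold or among the 4 with the largest ratios in a direction, read in 10% of cells and at 20 CPM in a group; the values of Pxdn were picked after they had been seen. Nearest genes are those with the highest Pearson r among genes read in 20% of cells.

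Alternatives were another random draw, unthinned counts, TMM scaling (edgeR 4.0.16), 10 CPM added, leaving out the highest cell, 200000 read pairs and 2500 genes, leaving out cells with markers of other types, each adult set alone, a class cut of 2, keratins alone, and 5 reads for detection. The split of each member by markers of other types, the pair of Lama3 and Lamb3 the rule of 20 percentage points and the listed genes without their highest cells were chosen after seeing the data. A listed gene, with the results that need it, is not reported here. Scripts were tested on simulated counts. Python 3.11.15, numpy 2.4.6, pandas 2.3.3, scipy 1.17.1, matplotlib 3.10.9 and R 4.3.3 were used.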

Additional observations from a re-analysis of the deposited data

Results flagged for a closer look

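For 4 members the ratio of puberty to adult had opposite signs in basal and luminal cells, as log2 ratios of mean CPM. Lama5 had -0.50 in basal and 1.26 in luminal cells, and the luminal value turned to -0.33 without cells bearing markers of other types. Lamb3 had -1.80 and 1.52, the luminal value from means of 12.3 and 4.29 CPM. Col4a2 had -0.059 and 3.62. The basal values of Lama5 and Col4a2 changed sign between the adult sets, and no stage direction is given for them in basal cells. Nid1 had 1.35 and -0.83, the former with 42.5% of the pubertal reads in 1 cell and the latter resting on 1 adult luminal cell with 12210 CPM and 8 of 8 fibroblast markers. The ratio of basal to luminal cells also had opposite signs at the stages for Nid1, 1.25 at puberty and -0.93 in the adult, resting on the same cell. With 1 sample per stage, none of these differences between classes or stages was tested.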

How the results depend on the processing

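The limits are these: each stage was handled as 1 sample, means of sparse genes rest on few cells, and 1 read at this depth is 10 CPM. For the median log2 ratio over the members, the stage value of -0.33 became -0.25 in another random draw, -0.45 after TMM scaling, -0.12 when each gene and group lost its highest cell, 0.068 with 200000 read pairs and 2500 genes, -0.25 without cells bearing markers of other types and 0.056 with the run alone. The pubertal basal to luminal median of 2.49 became 2.23 with 10 CPM added, 2.72 without the highest cells, 2.27 with the stricter filter, 2.99 without other types and 2.00 with keratins alone as markers. The adult one of 2.23 became 4.92 without the highest cells, 3.15 with the stricter filter, 4.73 without other types, 3.88 in the run, 3.64 in the other adult cells, 3.75 with a class cut of 2 and 1.33 with keratins alone. The stage median in basal cells, -0.059, became -0.18 with TMM, 0.18 with the stricter filter, 0.39 against the run, 0.079 against the other adult cells, 0.15 with a cut of 2 and 0.76 with keratins alone, so it has no stable sign. The luminal one of 1.26 became 1.05 with TMM, 0.64 with 10 CPM added, 2.03 without the highest cells, 2.45 with the stricter filter, 1.78 without other types, 1.55 against the run, 2.17 against the other cells and 0.92 with keratins alone. Of cells with every chain, laminin α5β1γ1 moved from 25.5% to 40.4% unthinned at puberty, and in the adult from 25.3% to 42.2% unthinned and 4.82% at 5 reads. Lama3 with Lamb3 moved from 38.3% to 8.51% at 5 reads and 57.4% unthinned at puberty, and from 50.6% to 16.9%, 65.1% and, in the other adult cells, 35.3% in the adult. The collagen IV pair moved to 80.9% at 5 reads and 100% with keratins alone at puberty, and to 78.3% at 5 reads and 97.6% unthinned in the adult. Among member ratios past 2-fold, the signs that turned were those of Lama5 without other types (-0.25 over all cells, -0.33 in luminal cells), of Lama3 in luminal cells (1.08 without the highest cell, 1.55 against the run) and of Hspg2 in luminal cells (1.65 without the highest cell, 2.58 without other types, 3.06 against the other adult cells, 2.29 with a cut of 2). Smaller ratios turned as well: that of Nid1 between adult classes kept its sign in 7 of 11 alternatives (-1.72 to 9.23), and those of Lama5, Col4a2 and Hspg2 between the stages in basal cells in 8, 9 and 7 of 11. In basal cells, the stage ratio of Lamb1 ran from 0.08 to 1.52 over 11 alternatives without changing sign. Counting every gene with a read, 5013 of 17475 genes were past 2-fold higher and 3897 lower at puberty, against 1588 and 1147 of 7806 at 20 CPM. Beyond the adult sets and single cells, the cause of these shifts was not tested. No paired analysis was possible because the numbers of the cells name no animal or sort that links the stages, and no test was run.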
